A study of Mus musculus with 6 samples.

Results

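Nuclear speckles are bodies in the nucleus that store and modify splicing factors, and many active genes lie close to them. Their interior is held together by large proteins rich in serine and arginine, of which Son and Srrm2 are known as the scaffolds that speckles need in order to form. Around these scaffolds lie proteins that couple splicing to the exon junction complex, to the U1 snRNP and to mRNA release, and the long noncoding RNA Malat1, which is enriched in speckles but is not needed to build them. The genes described here are Son and the 8 speckle genes Srrm1, Srrm2, Pnn, Acin1, Bclaf1, Thrap3, Rbm25 and Malat1. They were chosen by symbol, and each symbol matched 1 of the 46072 genes in the deposited tables. All 9 passed the filter on low counts, as did 17788 genes in all.

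The libraries were made from mouse embryos at the 4-cell stage, 3 from embryos whose zygotes had been microinjected with siRNA against Son and 3 from control embryos. The sources used here do not give the strain, the number of embryos in a library, the control injection or the siRNA sequence. They do not say whether the libraries stem from different litters or injection days either. The p-values therefore describe only how far these libraries spread, which may be technical. cDNA was made with Smart-Seq2, a full-length protocol primed with oligo(dT) that keeps no strand information. A bulk library does not show whether fewer embryos or cells carried a transcript or each carried less of it, and these cannot be told apart.

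Total estimated counts ranged from 104634855 to 118865650 units per library, and mitochondrial genes took 13.2% to 17.5% of them after Son siRNA and 9.79% to 16.0% in controls. Of 14 early embryo genes listed as markers all were tested. The list was chosen with earlier results of these data known, so its counts are no test of these genes as a set. After Son siRNA 3 of them fell and 0 rose past edgeR's threshold (8 at an unadjusted p under 0.05; 5 lower and 0 higher by DESeq2). Over all 17788 genes tested, 0.899% were lower by edgeR, 14.7% had an unadjusted p under 0.05 and 6.9% were called by DESeq2 in either direction. Of 15 cumulus cell markers, 6 were at 0 in every library, namely Foxl2, Inha, Inhba, Cyp11a1, Fshr and Lhcgr. The summed level of the list was 21.2 to 28.1 CPM (a gene's share of its library's counts after TMM scaling, in the usual unit) after Son siRNA and 7.65 to 18.9 CPM in controls, mostly from Amhr2. Sperm markers summed to 0.151 to 0.905 CPM after Son siRNA and 0.194 to 1.14 CPM in controls, with Tnp2, Odf1 and Smcp at 0 throughout. Blood markers summed to 9.74 to 10.96 CPM after Son siRNA and 6.02 to 12.1 CPM in controls, with Hbb-bs, Hbb-bt and Ptprc at 0 throughout. The part of the cumulus list in the results was not tested.

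The coding sequences of the 8 protein-coding genes share a high density of serine and arginine codons. Over 20986 mouse coding genes, with 1 GENCODE vM21 transcript each, serine and arginine codons made up a median of 13.4% of codons. They made up 39.7% in Srrm2, 32.8% in Srrm1, 29.4% in Bclaf1, 29.1% in Thrap3, 24.7% in Pnn, 21.3% in Acin1, 20.5% in Son and 18.1% in Rbm25. Srrm2 had 318 places where a serine and an arginine codon adjoin, the highest number of any coding gene, and Son had 91, the sixth highest, against a median of 3. These numbers grow with length. As a share of all neighbouring codon pairs they came to 11.8% in Srrm2 and 3.72% in Son, against a median of 0.728%. Bclaf1 (7.13%), Thrap3 (6.74%), Srrm1 (5.75%) and Pnn (3.86%) lay above Son by this share, and Acin1 (3.29%) lay below. Rbm25 had 7 such places, a share of 0.836%, close to the median. Serine made up 5.13% of its codons and arginine 13.0%. Its densest stretch alternates arginine with other codons. The windows of 20 codons with the most such neighbours in a single exon are printed for 5 genes, on GRCm38 and read 5′ to 3′ on the coding strand, with arginine codons in capitals. They are shown so that the alternation of serine and arginine codons in the first 4 can be set beside Rbm25, whose window has fewer such neighbours (4, against 10 to 13 in the others). The scaffolds Son and Srrm2 come first, then the related pair Bclaf1 and Thrap3, then Rbm25 as the gene with the fewest.
Son, chr16:91660025-91660084, + strand, exon 3 of 12: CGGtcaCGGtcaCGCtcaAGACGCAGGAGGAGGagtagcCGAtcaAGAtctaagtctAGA
Srrm2, chr17:23815977-23816036, + strand, exon 11 of 15: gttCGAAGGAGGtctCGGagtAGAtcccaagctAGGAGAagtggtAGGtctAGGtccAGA
Bclaf1, chr10:20323228-20323287, + strand, exon 4 of 12: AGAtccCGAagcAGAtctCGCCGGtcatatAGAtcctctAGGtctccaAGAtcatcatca
Thrap3, chr4:126186473-126186532, - strand, exon 2 of 11: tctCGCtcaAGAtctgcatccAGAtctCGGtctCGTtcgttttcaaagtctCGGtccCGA
Rbm25, chr12:83664198-83664257, + strand, exon 10 of 19: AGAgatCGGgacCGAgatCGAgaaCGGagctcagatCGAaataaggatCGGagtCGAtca

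Son was the only one of the 9 genes that passed the test between Son siRNA and control embryos, and it was lower after siRNA. The comparison asked whether RNA of the other speckle genes differed in embryos that had lost most Son RNA. The quasi-likelihood test of edgeR, with p-values adjusted over all genes by Benjamini-Hochberg, found that 1 of the 9 fell and 0 rose; over all genes tested 0.989% passed (0.899% lower and 0.0899% higher). None of the other 8 passed at an unadjusted p under 0.05 (14.7% of all genes did), and DESeq2 called 0 of them (6.9% of all genes). Their fold changes were above 0 for 4 and below 0 for 4, with a median log2 fold change of 0.02, as over all genes tested (0.02). Scaling by total counts put Srrm1, Pnn and Bclaf1 above 0 as well, none of them past the threshold. The median size of their log2 fold changes, sign aside, was 0.22, against 0.56 over all genes tested and 0.38 over 6079 genes with a mean of 10 CPM or more.

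**Figure D1:**
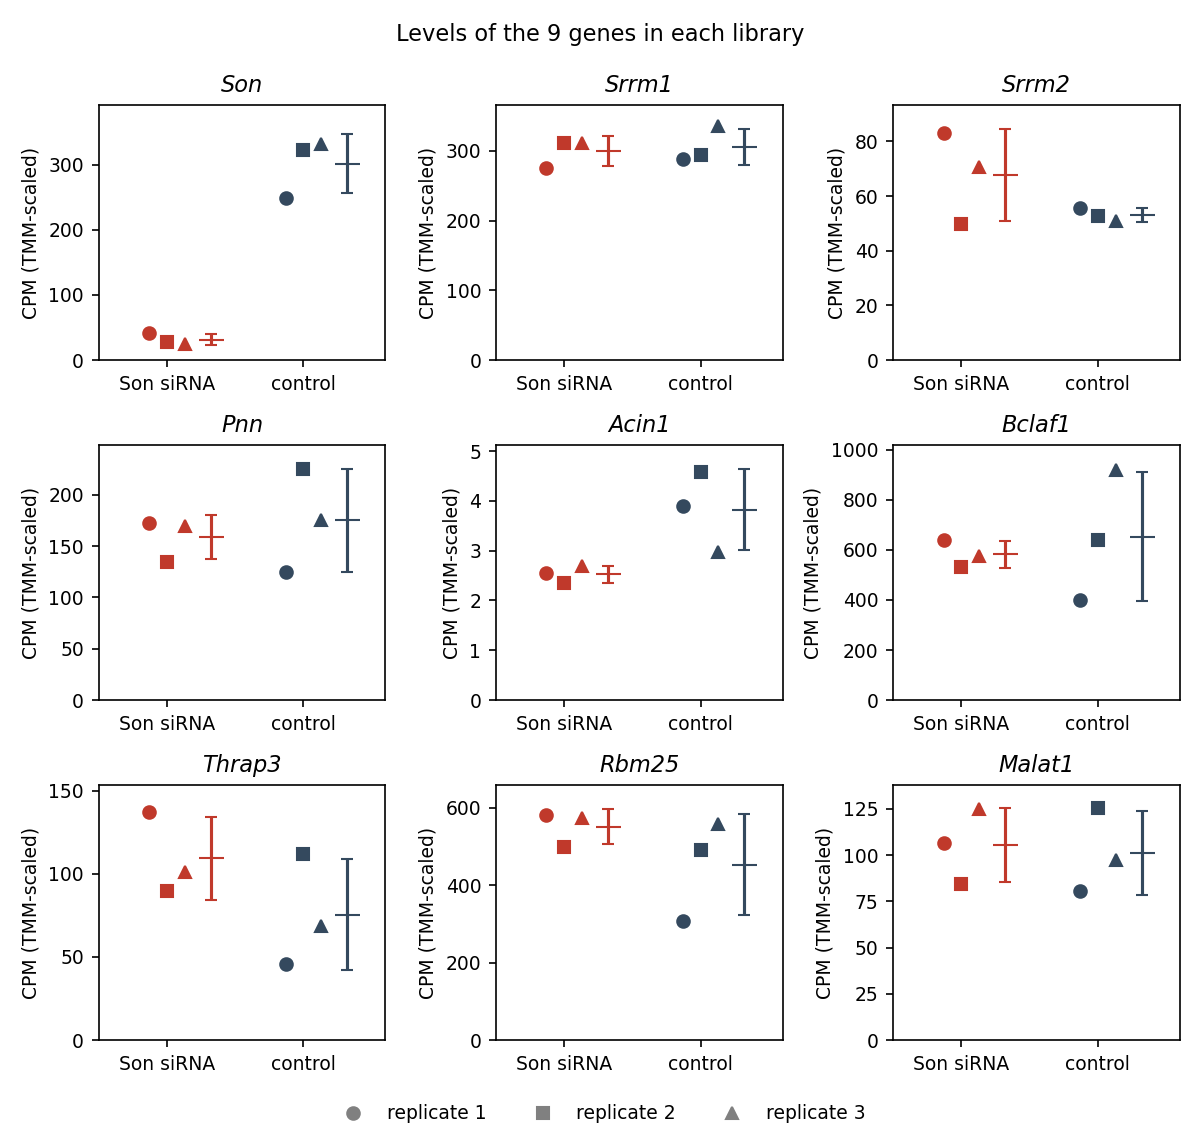
TMM-scaled CPM of the 9 genes in each library, Son siRNA left (red) and control right (dark blue), with marker shapes for the replicate numbers and the mean ± SD of 3 libraries beside the points. Axes start at 0 and differ between panels. Son and Acin1 are the 2 genes whose groups do not overlap, as for 23.7% of all genes tested. Acin1 lies below 5 CPM in every library.

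Son, the scaffold targeted by the siRNA (ENSMUSG00000022961, chromosome 16, 91647506 to 91679221), had 41.03, 28.0 and 25.1 CPM in the siRNA libraries, against 249, 322 and 332 CPM in controls. The groups did not overlap, and the siRNA libraries held 10.4% of the control mean. The log2 fold change was -3.26 (SE 0.272, 95% interval -3.88 to -2.65, edgeR adjusted p = 0.00991), that is, between 0.0681 and 0.160 times the control level. With 3 libraries against 3, an exact two-sided permutation test can go no lower than p = 0.1, which Son reached. Leaving out an siRNA library ended the call, with -3.50 (edgeR adjusted p = 0.0648) without replicate 1, -3.19 (0.0709) without replicate 2 and -3.12 (0.136) without replicate 3. Only 0.691% of Son's exonic bases overlap another gene, Donson, a replication fork factor on the other strand. Donson had 13.3, 20.3 and 17.8 CPM after Son siRNA, against 7.63, 12.1 and 12.2 CPM in controls. Every siRNA value of Donson lay above every control, but the gene did not pass edgeR's test (log2 0.68, adjusted p = 0.38). Groups that did not overlap were found for 23.7% of all genes tested.

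Son was also lower by a measure that needs no scaling between libraries. Of all counts assigned to the 8 protein-coding genes within a library, Son took 2.12%, 1.70% and 1.37% after Son siRNA and 16.9%, 15.04% and 13.6% in controls. The groups did not overlap, and the exact two-sided permutation test again gave its minimum of p = 0.1.

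Srrm2, the second scaffold (chromosome 17, 23790532 to 23824741), had 83.1, 49.7 and 70.7 CPM after Son siRNA, against 55.8, 52.5 and 51.0 CPM in controls. Replicates 1 and 3 of the siRNA group lay above every control and replicate 2 below every control, so the groups overlapped. Srrm2's log2 fold change was 0.35 (SE 0.253, 95% interval -0.22 to 0.93, edgeR adjusted p = 0.583). Srrm1, a coactivator of splicing that works in a complex with Srrm2, had 275, 312 and 312 CPM after Son siRNA, against 289, 293 and 336 CPM in controls. Its 6 values lay closest together relative to their level, and its interval was the narrowest of the 9 genes. Its log2 fold change was -0.03 (SE 0.187, 95% interval -0.45 to 0.39, edgeR adjusted p = 0.965), which places the siRNA level between 0.731 and 1.31 times that of controls.

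Pnn and Acin1 belong to the periphery of the exon junction complex, where each is known to bind Rnps1 and Sap18 in an alternative trimer (PSAP with Pnn, ASAP with Acin1). Pnn (chromosome 12, 59066884 to 59073998) had 172, 135 and 169.6 CPM after Son siRNA, against 125, 225 and 176 CPM in controls, and the siRNA values lay inside the control range. Pnn's log2 fold change was -0.14 (SE 0.256, 95% interval -0.72 to 0.44, edgeR adjusted p = 0.873). Acin1 (chromosome 14, 54642161 to 54686931), which also acts in chromatin condensation during apoptosis, had 2.55, 2.35 and 2.69 CPM after Son siRNA, against 3.90, 4.59 and 2.98 CPM in controls. Its groups did not overlap, as was the case for 23.7% of all genes tested, but the gap was small beside the control spread. For Acin1 the log2 fold change was -0.60 (SE 0.398, 95% interval -1.50 to 0.30), with an edgeR adjusted p of 0.55.

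Acin1 was the least abundant of the 9 genes, with 275 to 356 units per siRNA library and 287 to 521 units per control library, and its value is uncertain for another reason. Of its exonic bases, 6.30% overlap 3 other genes, among them 1700123O20Rik, which had 130, 181 and 134 CPM after Son siRNA and 81.5, 130.5 and 96.0 CPM in controls. The same gene shares 7.87% of the 100-base stretches of the Acin1 transcript, and reads without strand cannot be told apart there. Of the trimer partners, named here for that role and outside the rule for named genes, Rnps1 averaged 16.5 ± 1.38 CPM after Son siRNA and 19.4 ± 9.11 CPM in controls (SD, n = 3 each). Sap18 averaged 320 ± 62.3 CPM after Son siRNA and 315 ± 71.3 CPM in controls (SD, n = 3 each). Neither passed edgeR's test (adjusted p = 0.84 for Rnps1 and 0.985 for Sap18). Gm9825 shares 18.3% of the 100-base stretches of the Rnps1 transcript and Sap18b 13.5% of those of Sap18, so both levels are uncertain too.

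Bclaf1 and Thrap3 are related proteins that act in mRNA processing and export and in the DNA damage response. Bclaf1 (chromosome 10, 20312469 to 20344613) had 640.4, 532 and 574 CPM after Son siRNA, against 400.2, 642 and 918 CPM in controls. The siRNA values lay inside the control range, which spanned more than a doubling. Its log2 fold change was -0.17 (SE 0.289, 95% interval -0.82 to 0.49, edgeR adjusted p = 0.865).

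Thrap3 (chromosome 4, 126164082 to 126202760) had 137, 89.7 and 101 CPM after Son siRNA, against 46.0, 112 and 68.4 CPM in controls. Controls 1 and 3 lay below every siRNA library and control 2 above siRNA replicates 2 and 3. The log2 fold change of 0.54 was the highest of the 9 but did not pass the test (SE 0.338, 95% interval -0.23 to 1.3, edgeR adjusted p = 0.526). Of its transcript's 100-base stretches, 21.8% also occur in Gm15204 or Gm5898. Those entries were low, with Gm5898 at 5.02, 3.54 and 4.03 CPM after Son siRNA and 0.926, 4.13 and 2.53 CPM in controls.

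Rbm25, a U1-associated factor that regulates alternative splicing, including that of the apoptosis gene Bcl2l1, was the most abundant of the 9 per length after Son siRNA. It had 580, 498 and 573 CPM after Son siRNA, against 308, 491 and 558 CPM in controls (chromosome 12, 83631236 to 83683123). Control 1 stood well below the other 5 libraries. Rbm25's log2 fold change was 0.28 (SE 0.246, 95% interval -0.28 to 0.84, edgeR adjusted p = 0.67). As a share of the counts of the 7 protein-coding genes other than Son, which needs no scaling, Rbm25 took 30.7%, 30.8% and 31.8% after Son siRNA and 25.1%, 27.0% and 26.5% in controls. These groups did not overlap, with the minimum of p = 0.1 by the exact two-sided permutation test. Rbm25 was 1 of 7 such shares; in CPM, 23.7% of all genes tested had groups that did not overlap. The shares of the other 6 genes overlapped between groups.

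Malat1 (chromosome 19, 5795690 to 5802672), the noncoding RNA of the set, had 107, 84.6 and 125 CPM after Son siRNA, against 80.4, 125 and 97.3 CPM in controls. The groups covered nearly the same range. Malat1's log2 fold change was 0.06 (SE 0.251, 95% interval -0.51 to 0.63, edgeR adjusted p = 0.948). As background, the mature 3′ end of Malat1 is a triple helix without a poly(A) tail, while Smart-Seq2 primes with oligo(dT); the part of this in its CPM was not tested. Of its exonic bases 7.72% overlap Gm27694 or Gm37376, and 5.14% of its 100-base stretches occur in other genes.

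With TMM scaling and all libraries, the 95% interval of the fold change lay inside 2-fold in either direction for 6 of the 8 genes other than Son. The exceptions were Acin1, whose interval reached 0.355 times the control level, and Thrap3, whose interval reached 2.46 times. This bound depends on the processing. Scaling by total counts moved the upper limit past 2-fold for Srrm2 (log2 1.33), Rbm25 (1.17) and Malat1 (1.04), but not for Srrm1, Pnn or Bclaf1. Leaving out siRNA replicate 1 moved the lower limit of Bclaf1 past 2-fold (log2 -1.06). The upper limit of Srrm2 also lay past 2-fold without control 1, without siRNA replicate 2 or 3, and with the replicate number as a block. That of Rbm25 also did so without control 3 and without siRNA replicate 2. Differences that lie inside these intervals could not be resolved with 3 libraries a group.

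**Figure D2:**
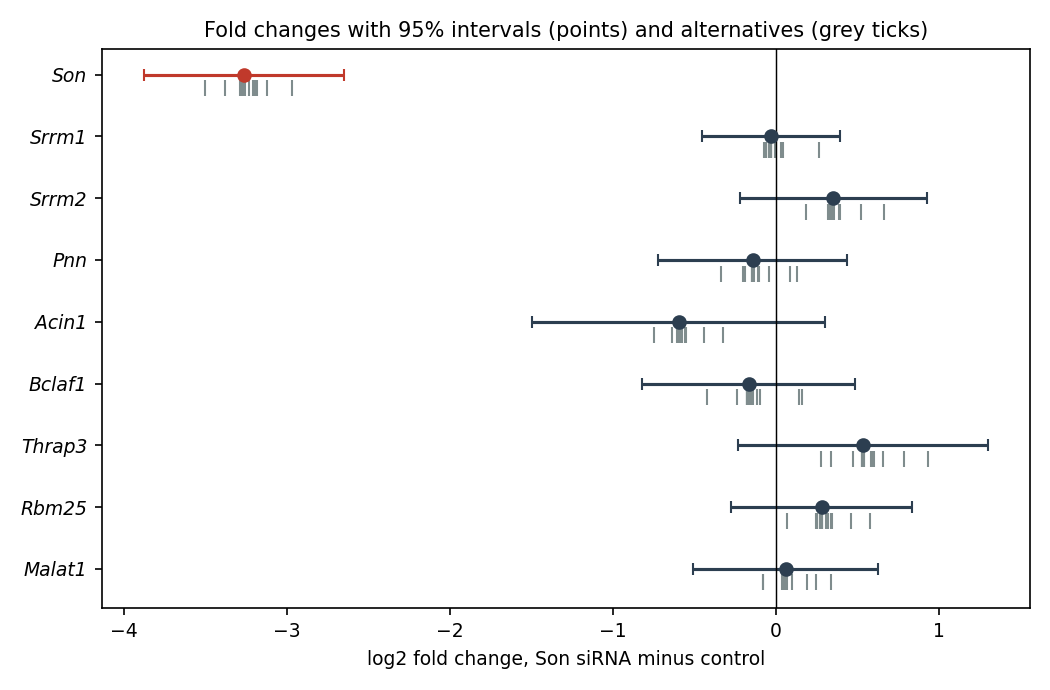
Log2 fold change of each gene, Son siRNA minus control, with its 95% interval from edgeR (points and bars, Son past the threshold in red) and the values under each alternative processing (grey ticks). The interval of Son ends at -2.65, while the intervals of the other 8 genes include 0.

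Compared per length, as CPM per 1000 bases of 1 annotated transcript, the genes kept nearly the same order in both groups apart from Son. After Son siRNA the mean levels were 130 ± 10.7 for Rbm25, 109.6 ± 10.3 for Bclaf1 and 95.01 ± 6.76 for Srrm1 (SD, n = 3). In controls the levels were 107 ± 30.6 for Rbm25, 123 ± 48.8 for Bclaf1 and 97.0 ± 8.19 for Srrm1 (SD, n = 3). These genes overlapped in range in controls, and after siRNA Rbm25 overlapped Bclaf1 but Bclaf1 lay above Srrm1. Pnn followed at 45.6 ± 6.02 after Son siRNA and 50.2 ± 14.4 in controls, below the range of Srrm1 in both groups.

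Son stood between Srrm2 and Acin1 after siRNA, at 3.74 ± 1.01 CPM per 1000 bases, and between Pnn and Thrap3 in controls, at 35.8 ± 5.39 (SD, n = 3 each). In controls its range, 29.6 to 39.5, overlapped that of Pnn, 35.8 to 64.5, and lay above that of Thrap3, 10.5 to 25.5. After siRNA its range, 2.99 to 4.89, lay below that of Srrm2, 5.61 to 9.38, whereas in controls Srrm2 had 5.75 to 6.30. Thrap3 had 24.95 ± 5.69 after Son siRNA and 17.2 ± 7.63 in controls, and Malat1 had 15.1 ± 2.88 after Son siRNA and 14.5 ± 3.25 in controls (SD, n = 3 each). Thrap3 and Malat1 overlapped in controls and not after siRNA. Acin1 was last in both groups, at 0.534 ± 0.0361 after Son siRNA and 0.807 ± 0.170 in controls (SD, n = 3 each).

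The control libraries varied more than the siRNA libraries in 7 of the 9 genes, by the SD of log2 CPM; over genes with a mean of 10 CPM or more, 80.3% did. Bclaf1 had an SD of 0.14 after Son siRNA and 0.60 in controls, and Rbm25 had 0.12 after Son siRNA and 0.45 in controls. Son and Srrm2 were the exceptions. Son had an SD of 0.37 after Son siRNA and 0.23 in controls, and Srrm2 had 0.38 after Son siRNA and 0.07 in controls. Control 1 was the lowest of all 6 libraries for 5 of the 9 genes, Pnn, Bclaf1, Thrap3, Rbm25 and Malat1, and over the 6079 genes at 10 CPM or more it was the lowest for 24.0%. The summed CPM of the 8 genes other than Son was 1997, 1702 and 1927 after Son siRNA and 1308, 1945 and 2207 in controls, so the siRNA values lay inside the control range.

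**Figure D3:**
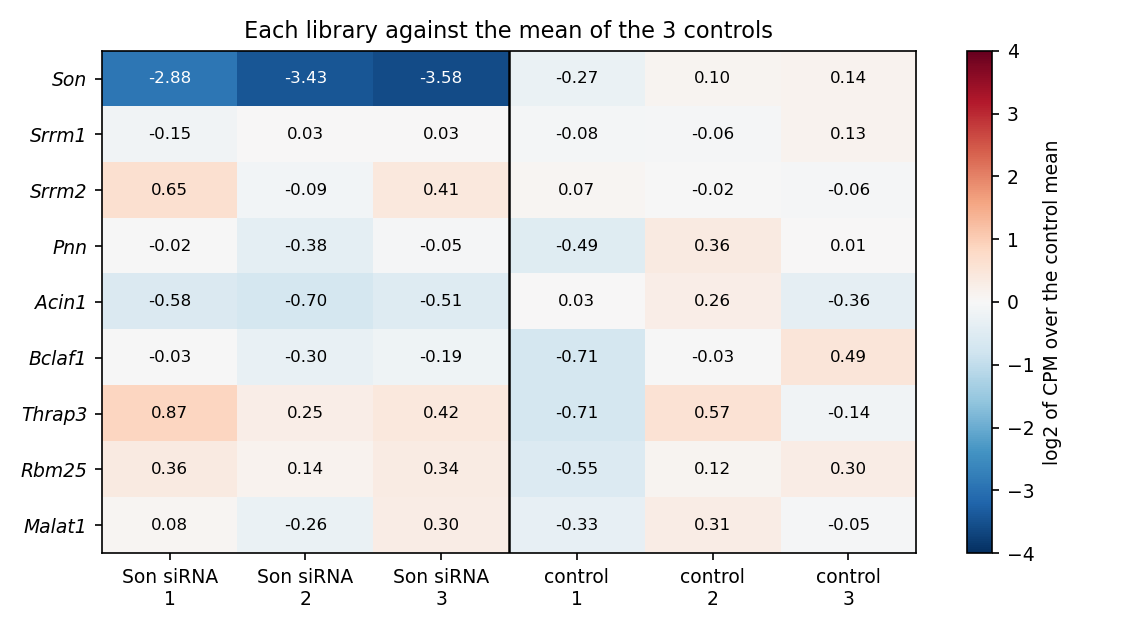
Log2 of each library's CPM over the mean of the 3 controls, for the 9 genes (rows) in the 3 Son siRNA libraries (left) and the 3 controls (right). Son lies between -2.88 and -3.58 in the siRNA libraries, and control 1 holds the lowest values of Bclaf1 and Thrap3, both at -0.71.

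Genes known to work with the members, listed by role, were mostly not past the threshold either. Of 17 direct partners (the trimer and exon junction proteins, U1-associated proteins and the export factors Ddx39b and Alyref) 16 were tested, and Bclaf3 was not analysed here. With edgeR's test 1 fell and 0 rose (3 at an unadjusted p under 0.05), and 2 were lower with DESeq2. Over all genes tested 0.989% passed edgeR's test, 14.7% had an unadjusted p under 0.05 and DESeq2 called 6.9% in either direction. The median log2 fold change of these partners was -0.18, with 9 below 0 and 7 above. Ddx39b, the RNA helicase that recruits the export complex to spliced mRNA, had 18.7, 18.1 and 21.6 CPM after Son siRNA, against 72.1, 64.5 and 41.4 CPM in controls. The groups did not overlap, as for 23.7% of all genes tested. The log2 fold change of Ddx39b was -1.61 (SE 0.285, edgeR adjusted p = 0.0416). Leaving out control 3 kept the call, and leaving out any other library ended it, with log2 fold changes from -1.44 to -1.68 and edgeR adjusted p from 0.0511 without control 2 to 0.295 without siRNA replicate 1. Scaling by total counts also ended it (-1.33, adjusted p = 0.127), as did dropping the filter (-1.61, adjusted p = 0.0519).

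Snrpc, which encodes the U1 snRNP subunit U1-C, had 334, 247 and 385 CPM after Son siRNA, against 813, 731 and 525 CPM in controls. Its log2 fold change of -1.10 did not pass edgeR's test (adjusted p = 0.0832), while DESeq2 gave an adjusted p of 0.00406. Alyref, an export adaptor bound to Ddx39b, had 40.4, 33.1 and 42.1 CPM after Son siRNA, against 22.1, 28.2 and 27.3 CPM in controls. Its groups did not overlap, as for 23.7% of all genes tested. For Alyref edgeR's test gave a log2 fold change of 0.58 with an adjusted p of 0.338. Rbm8a, the exon junction subunit also called Y14, had 734, 924 and 927 CPM after Son siRNA, against 746, 658 and 657 CPM in controls, with a log2 fold change of 0.33 (edgeR adjusted p = 0.485).

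Among 15 kinases and cyclins that phosphorylate or accompany speckle proteins, 0 passed edgeR's test in either direction (0.989% of all genes tested did). An unadjusted p under 0.05 was found for 2 (14.7% of all genes). With DESeq2 1 was lower (6.9% of all genes were called in either direction), and the median log2 fold change of the 15 was -0.12. The gene called by DESeq2 was Clk2, a kinase of SR proteins, with 2.81, 3.65 and 2.64 CPM after Son siRNA, against 7.72, 6.47 and 12.3 CPM in controls. Its log2 fold change was -1.54, with an adjusted p of 0.106 from edgeR and 0.00444 from DESeq2. Dyrk2 was near the detection limit, with 0.388, 1.12 and 0.423 CPM after Son siRNA, against 0.0833, 0.0352 and 0 CPM in controls (edgeR adjusted p = 0.248). Dyrk1a averaged 199 ± 15.2 CPM after Son siRNA and 234 ± 45.6 CPM in controls, with an edgeR adjusted p of 0.681 (SD, n = 3 each). Cdk12, a kinase of the RNA polymerase II tail, averaged 42.7 ± 9.46 CPM after Son siRNA and 53.5 ± 3.53 CPM in controls, with an edgeR adjusted p of 0.611 (SD, n = 3 each).

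Among 31 other proteins found in speckles, edgeR's test called 1 lower and 0 higher (4 at an unadjusted p under 0.05), and 2 were lower with DESeq2. Over all genes tested 0.989% passed edgeR's test, 14.7% had an unadjusted p under 0.05 and DESeq2 called 6.9% in either direction. The log2 fold changes of the 31 were below 0 for 15 and above 0 for 16. Rsrc1, an arginine and serine rich splicing factor, had 1.67, 2.21 and 1.09 CPM after Son siRNA, against 22.5, 11.7 and 7.51 CPM in controls. The groups were far apart, and the log2 fold change was -3.07 (SE 0.51, edgeR adjusted p = 0.0378). It was no longer past without control 1 (log2 -2.53, adjusted p = 0.0775), with total counts (-2.79, 0.0781) or without siRNA replicate 1, 2 or 3 (-3.07, -3.34 and -2.84, with adjusted p of 0.277, 0.12 and 0.256).

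Wtap, a regulatory subunit of the m6A methyltransferase, had 703, 558 and 552 CPM after Son siRNA, against 1681, 805 and 1177 CPM in controls, a log2 fold change of -1.01. It did not pass edgeR's test (adjusted p = 0.129), passed it without control 2 (log2 -1.24, adjusted p = 0.0444) and was the second gene called by DESeq2 (adjusted p = 0.024). Zranb2, a zinc finger splicing factor, had 204, 281 and 222 CPM after Son siRNA, against 367, 353 and 335 CPM in controls, and its log2 fold change of -0.58 did not pass (edgeR adjusted p = 0.222). Cdc5l, a core subunit of the Prp19 complex, averaged 311 ± 22.4 CPM after Son siRNA and 424 ± 24.8 CPM in controls (SD, n = 3 each; log2 -0.45, edgeR adjusted p = 0.302). Other genes hold 22.9% of the 100-base stretches of its transcript, so its value is uncertain.

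**Figure D4:**
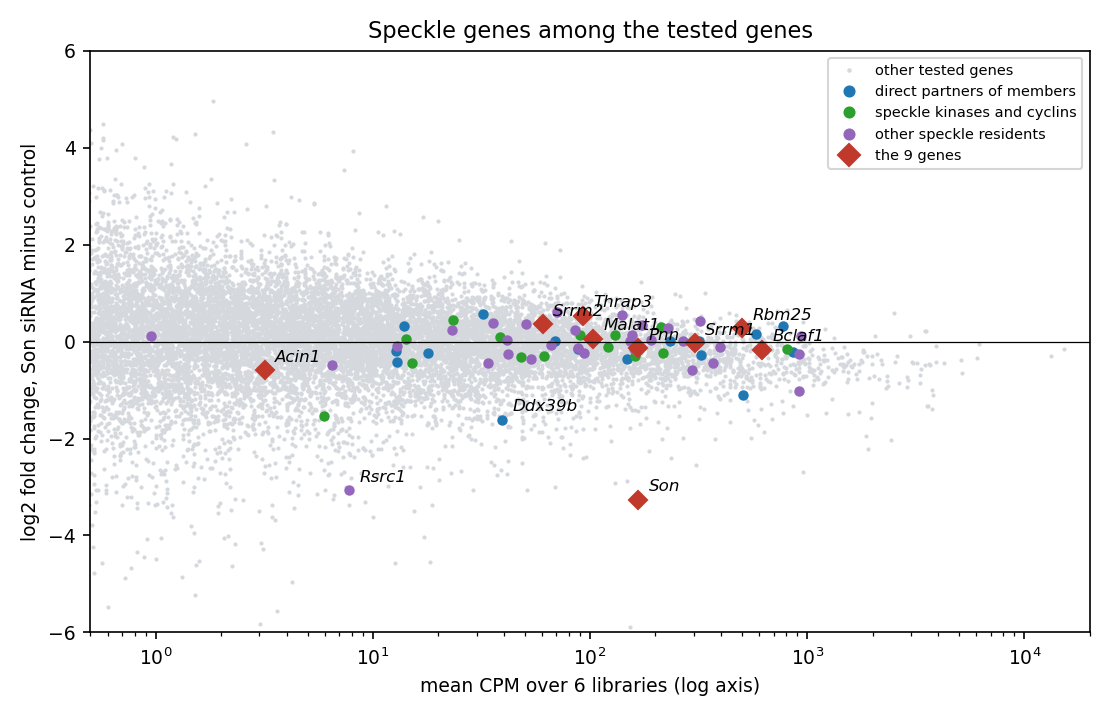
Mean CPM over the 6 libraries (log axis) against the log2 fold change, Son siRNA minus control, for the 9 genes (red diamonds), the 3 lists of speckle proteins (coloured points) and other tested genes (grey, with genes below 0.5 CPM or beyond 6 in log2 not drawn). Among these genes Son, Rsrc1 and Ddx39b passed edgeR's test, at -3.26, -3.07 and -1.61, and the 8 genes other than Son lie between -0.60 and 0.54.

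Of 6 other genes listed as noncoding RNAs retained in the nucleus, 5 were tested and 0 passed edgeR's test (0.989% of all genes tested did). Their median log2 fold change was -0.34. An unadjusted p under 0.05 was found for 1 (14.7% of all genes), and DESeq2 called 0 (6.9% of all genes). Neat1, the scaffold RNA of paraspeckles and the chromosomal neighbour of Malat1, had 1.16, 1.19 and 0.0604 CPM after Son siRNA, against 2.65, 0.986 and 0.53 CPM in controls (edgeR adjusted p = 0.806). Xist, which coats the inactive X chromosome, had 64.1, 18.2 and 35.3 CPM after Son siRNA, against 203, 80.0 and 24.3 CPM in controls (edgeR adjusted p = 0.4). Other genes, among them Tsix, overlap 12.6% of the exonic bases of Xist, and reads without strand cannot be told apart there. Snhg11 is on this list although GENCODE vM21 annotates it as protein-coding. It had 8.82, 6.45 and 5.70 CPM after Son siRNA, against 4.23, 2.92 and 3.14 CPM in controls. Its log2 fold change was 1.03 (edgeR adjusted p = 0.24). Kcnq1ot1, the imprinted antisense RNA of the Kcnq1 locus, averaged 15.8 ± 2.18 CPM after Son siRNA and 20.1 ± 10.6 CPM in controls (SD, n = 3 each; edgeR adjusted p = 0.8).

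The genes whose levels followed Son most closely over the 6 libraries were Cbll1, Tnks2, Rnf213, Ftsj3 and Alppl2, by Pearson's r of log2 CPM with Son (0.984 to 0.988, among 2600 genes with a mean of 50 CPM or more). This likeness is a description over 6 libraries in which the 2 groups stand apart, so the choice itself favours genes that differ between them. The calls given for these genes are therefore no test of them. Over all genes tested 0.989% passed edgeR's test. Cbll1, an E3 ubiquitin ligase of the m6A writer complex, had 123, 115 and 119.8 CPM after Son siRNA, against 198, 189 and 202 CPM in controls. Its log2 fold change was -0.72 (edgeR adjusted p = 0.113). Ftsj3, an rRNA processing methyltransferase, and Alppl2, an alkaline phosphatase, passed edgeR's test (log2 -2.06 and -2.26, adjusted p = 0.0122 and 0.00991), while Tnks2, a tankyrase, and Rnf213, an E3 ligase, did not (log2 -0.54 and -1.25, adjusted p = 0.206 and 0.0542).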

How the data were processed

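RNA of 6 libraries was analysed, 3 Son siRNA and 3 control; the sample titles gave group and replicate. The authors deposited 1 table per library of whole-number estimated counts (expected counts) for 46072 genes, not normalized. HISAT2 2.0.5, StringTie 1.3.3b and GRCm38 were used, per the submitters' processing notes; the sources used here name neither annotation release nor counting script. By Ensembl identifier 45137 genes matched GENCODE vM21 (GRCm38), which gave coordinates, transcripts and overlaps.

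Counts were used as deposited. Genes kept by filterByExpr were scaled by TMM and tested with edgeR 4.0.16 in R 4.3.3 (glmQLFit, glmQLFTest, no block), with Benjamini-Hochberg adjustment over all genes tested and a threshold of 0.05. Intervals are 95% intervals from the fitted log2 fold change and its SE. Spread and likeness to Son used log2 CPM (prior count 2). The fit was tested on simulated data. No interval or error given here is a counting error: reads amplified by PCR are not independent molecules.

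Members and lists were chosen with earlier results of these data known. Named genes were all members, list genes past the threshold or among the 4 smallest p of their list, and the 5 genes most like Son. Alternatives were other scalings (DESeq2 size factors, upper quartile, total counts), no filter, a stricter filter (50 units in at least 3 libraries), DESeq2 1.42.0 (Wald test), the replicate number as a block, counts divided by 4 (in case a read pair is worth several units) and leaving out each library. Leaving out mitochondrial genes and adding the counts of 2 near-identical copies to Thrap3 were chosen after seeing the data.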

Additional observations from a re-analysis of the deposited data

How the results depend on the processing

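Under 15 alternatives (16 for Thrap3) none of the 8 genes other than Son passed the threshold, with a smallest adjusted p of 0.132, for Thrap3. The log2 fold change ranged from 0.28 to 0.94 for Thrap3, 0.18 to 0.66 for Srrm2, 0.07 to 0.58 for Rbm25 and -0.74 to -0.32 for Acin1. Signs of values near 0 turned. With total counts, where the median over all genes moved by 0.29, the log2 fold change was 0.27 for Srrm1, 0.13 for Pnn, 0.14 for Bclaf1 and 0.085 for Dyrk1a. Leaving out 1 library gave values from -0.069 to 0.044 for Srrm1 (above 0 without control 3 or siRNA replicate 1), -0.33 to 0.085 for Pnn (above 0 without control 2) and -0.42 to 0.16 for Bclaf1 (above 0 without control 3). It gave -0.078 to 0.25 for Malat1 (below 0 without control 1 or siRNA replicate 3) and -1.20 to 0.085 for Neat1 (above 0 without control 1).

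Son was below 0 in every alternative, from -3.50 to -2.97. With the replicate block it was -3.29 (edgeR adjusted p = 0.0617), not past, and 0 members and 0 genes were called. The labels state no shared litter or batch, so the replicate numbers were not taken as pairs. Deviations from the group mean correlated at -0.27, -0.33 and 0.02 between same-numbered libraries and at -0.23 to 0.41 between the others. Within a group of 3 libraries such deviations are tied to each other, so these correlations cannot decide whether litters or injection days were shared. Leaving out 1 library gave 0 to 1 members lower and Son values from -3.50 to -3.12, with the call lost whenever an siRNA library was left out. In those fits 0 to 231 genes were lower and 0 to 84 higher, against 160 and 16 with all libraries: 0 and 0 whenever an siRNA library was left out, 58 and 6 without control 1, 231 and 84 without control 2, 79 and 8 without control 3. The count of lower and higher genes was 35 and 7 with total counts, 91 and 9 without a filter, 245 and 43 with the stricter filter, 823 and 405 by DESeq2, and 279 and 51 with counts divided by 4; the cause was not tested. With the replicate block Ddx39b (-1.58) and Rsrc1 (-2.98) were also no longer past.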
